A study of Drosophila melanogaster with 6 samples.

Results

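The Antennapedia complex window is a stretch of 500 kb on the right arm of chromosome 3 (3R) of Drosophila melanogaster. It runs from 2400001 to 2900000 in the coordinates of Release 5 (dm3), the build named in the submitters' processing notes. Every peak whose summit lay in it was taken, which gave 553 peaks of the 12061 in the 4 deposited lists. Of these, 274 came from Pcl A, 271 from Pcl B, 5 from Jarid2 A and 3 from Jarid2 B.

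The lists came from chromatin immunoprecipitation followed by sequencing (ChIP-seq) in whole embryos aged 12 to 24 h that expressed Polycomblike (Pcl) or Jarid2 with a BioTAP tag, an affinity tag used for 2 purifications in a row. The groups were BioTAP-Pcl immunoprecipitates (replicates A and B) and BioTAP-Jarid2 immunoprecipitates (replicates A and B), and every embryo sampled carried a tagged protein. The inputs, 1 per protein, were not analysed here. The labels do not give the promoter that drove a tagged protein, the genotype of the endogenous gene or whether A and B came from separate embryo collections, so the spread between A and B may be technical. A peak from a whole embryo does not tell in which cells the protein was bound. Read depth is unknown from the lists, which hold no read totals.

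Polycomb repressive complex 2 methylates histone H3 on lysine 27, the mark of genes held silent by Polycomb proteins. Pcl and Jarid2 are accessory subunits that occur in different variants of that complex. In flies, Polycomb proteins gather at Polycomb response elements and spread over long chromatin domains, and the homeotic gene clusters are the classical example. The Antennapedia complex is the cluster of homeotic genes for the head and the anterior thorax. It holds, in the order of the RefSeq table for Release 6, lab, pb, zen2, zen, bcd, Ama, mir-993, Dfd, mir-10, Scr, ftz and Antp. Of these, lab, pb, Dfd, Scr and Antp are homeotic genes that set the identity of head and thoracic segments. The genes zen, bcd and ftz act in early patterning, as a dorsal regulator, as the maternal anterior determinant and as a pair-rule gene, Ama encodes a cell adhesion protein of the immunoglobulin superfamily, and mir-993 and mir-10 encode microRNAs. That table lists 44 genes from lab to Antp, 20 of them protein-coding. The window is named for the place of this cluster in Release 5. Since the coordinates of the table belong to another build, no peak was assigned to a gene and the name was not checked against gene positions.

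Pcl covered much of the window and Jarid2 very little. Peaks covered 46.5% of the window in Pcl A (232.6 kb) and 25.0% in Pcl B (124.8 kb), against 0.255% in Jarid2 A (1.28 kb) and 0.164% in Jarid2 B (0.822 kb). The mean covered length was 178.7 ± 76.2 kb for Pcl and 1.05 ± 0.320 kb for Jarid2 (SD, n = 2 each). The mean number of peaks was 272.5 ± 2.12 for Pcl and 4 ± 1.41 for Jarid2 (SD, n = 2 each). Both Pcl libraries lay above both Jarid2 libraries in peak number and in covered length. An exact two-sided permutation test over the 4 libraries gave p = 0.333 for each measure, the smallest p that 2 libraries against 2 allow. Protein and sequencing lane coincide in the peak names and cannot be told apart.

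The Pcl lists were longer than the Jarid2 lists, and with lists of equal length the mean difference of 268.5 peaks was 61.5 and that of 177.6 kb was 101.9 kb. The order was also the same for shares of each list. The window held 5.30% of all Pcl A peaks (Wilson 95% interval 4.72 to 5.94%) and 6.92% of all Pcl B peaks (6.17 to 7.76%), against 0.261% of Jarid2 A peaks (0.112 to 0.609%) and 0.284% of Jarid2 B peaks (0.0968 to 0.833%). The intervals cover counting error only and treat neighbouring peaks of 1 library as independent, which they are not. By length, the window is 0.42% of the ground that the lists span on the main chromosome arms. The share was 6.11 ± 1.15% for Pcl and 0.273 ± 0.0165% for Jarid2 (SD, n = 2 each, exact permutation p = 0.333).

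Among 1157 windows of 500 kb that started every 100 kb along the main arms, the Antennapedia complex window ranked 1 by number of peaks for Pcl A and 2 by number of peaks for Pcl B. The median window held 6 Pcl A peaks and 4 Pcl B peaks. The only window with more Pcl B peaks lay on 3R from 12400001 to 12900000 and held 279. By covered length the Antennapedia complex window had rank 4 in Pcl A and rank 5 in Pcl B. For Jarid2 it held fewer peaks than the median window: its 5 Jarid2 A peaks compare with a median of 7, and its 3 Jarid2 B peaks with a median of 4. It ranked 710 by peaks and 774 by covered length in Jarid2 A, and 635 and 709 in Jarid2 B. With q at or below 1e-05 these ranks were 896 and 1025 in Jarid2 A, and 444 and 554 in Jarid2 B. At that q its 2 Jarid2 A peaks lay below a median of 4, while its 2 Jarid2 B peaks equalled the median of 2. The ranks by peaks hold many ties. Without that limit on q, 129 windows, this one included, held 5 Jarid2 A peaks and 186 held 3 Jarid2 B peaks. The window was proposed with these lists in view, so its ranks are a description.

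**Figure D1:**
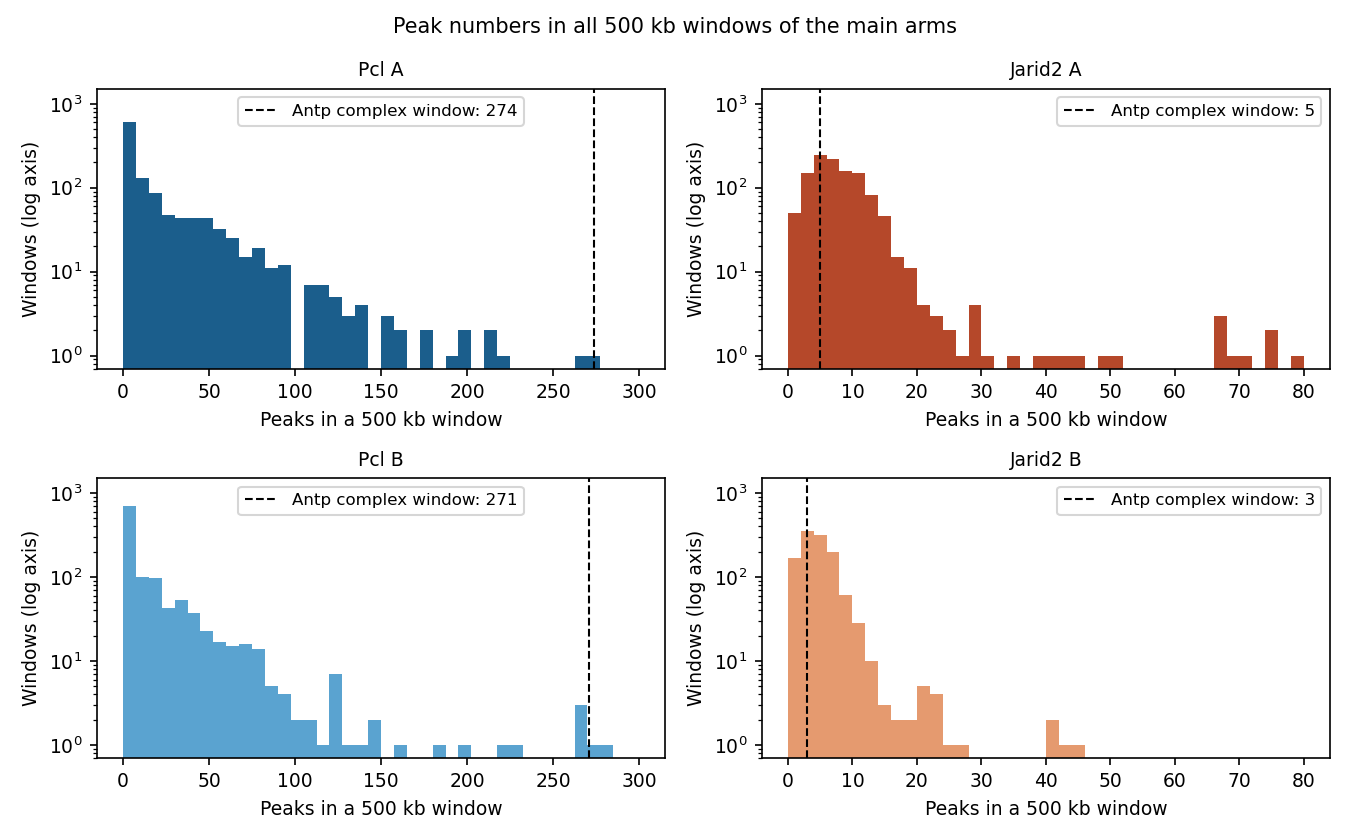
Number of peaks per 500 kb window (horizontal axis) against the number of windows with that many peaks (vertical log axis) for each list, with overlapping windows on the main arms. Dashed lines mark the Antennapedia complex window, at 274 and 271 peaks in the Pcl panels (left) and at 5 and 3 in the Jarid2 panels (right).

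Pcl peaks lay in a short domain and, beyond a gap, in a longer stretch that formed a single domain in Pcl A but 4 domains in Pcl B. The outer edges of both lay within 3.85 kb of each other in the libraries. For this the Pcl peaks of a list were joined across gaps of up to 5 kb. Toward the low-coordinate side the neighbourhood was empty: the last Pcl peak before the window lay 1224 kb before the first peak of the window in Pcl A and 1764 kb before it in Pcl B. Jarid2 peaks did occur in that flank, with 5 peaks in Jarid2 A and 3 in Jarid2 B in the 500 kb before the window. On the high-coordinate side the next Pcl peak beyond the window came after a gap of 25.0 kb for Pcl A and of 34.3 kb for Pcl B. The 500 kb beyond the window held 11 Pcl A peaks with a highest fold of 8.65 and 11 Pcl B peaks with a highest fold of 9.67.

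The first domain ran from 2489192 to 2510115 (20.9 kb) in Pcl A and from 2493046 to 2509740 (16.7 kb) in Pcl B. Its left edges differed by 3.85 kb and its right edges by 0.375 kb. Peaks covered 66.1% of it in Pcl A and 52.9% in Pcl B. It was lopsided, with 2 strong peaks toward its right edge and weak peaks elsewhere. The strong summits lay at 2504408 and 2509073 in Pcl A, with fold enrichments of 14.0 and 10.6, and at 2504413 and 2509079 in Pcl B, with folds of 21.5 and 17.1. Fold enrichment is the authors' peak caller's ratio at the summit, used here to describe and rank peaks within a list. The other 19 peaks of the domain in Pcl A had folds from 2.14 to 5.02, and the other 16 in Pcl B had folds from 3.16 to 5.48. The rightmost strong summit lay 1.04 kb from the edge of the domain in Pcl A and 0.661 kb from it in Pcl B.

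Next came a stretch almost without Pcl, 30.5 kb long in Pcl A and 32.5 kb long in Pcl B. It held 2 isolated peaks in each list. The lists shared a weak peak there, with its summit at 2534763 and a fold of 3.48 in Pcl A, and at 2534798 with a fold of 3.73 in Pcl B. The others, with summits at 2517221 in Pcl A and at 2520479 in Pcl B, were weaker still and had no counterpart.

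Beyond the gap, Pcl A had 1 long domain and Pcl B had 4. In Pcl A it ran without a gap of over 5 kb from 2540607 to 2879176, a length of 338.6 kb with 250 peaks and 64.4% covered. In Pcl B the same stretch was divided into 2542251 to 2585688 (43.4 kb, 31 peaks), 2606127 to 2681180 (75.1 kb, 59 peaks), 2690654 to 2749692 (53 peaks) and 2755266 to 2877887 (122.6 kb, 107 peaks). Peaks covered 27.7% to 47.3% of these 4 domains. With gaps of up to 5 kb, the outer edges of the stretch again lay close together, 1.64 kb apart on the left and 1.29 kb apart on the right. The edges and lengths depended on the gap allowed and on q. The right edge of the last domain of over 10 kb lay at 2879176 in Pcl A and 2869976 in Pcl B with gaps of up to 2 kb. With gaps of up to 10 kb it lay at 2885426 in Pcl A and 2877887 in Pcl B. With gaps of up to 2 kb the longest stretch measured 230.5 kb for Pcl A and 69.1 kb for Pcl B, and with gaps of up to 10 kb it measured 350.7 kb for Pcl A and 279.1 kb for Pcl B. With gaps of up to 5 kb and peaks with q at or below 1e-05, it measured 267.8 kb for Pcl A and 53.55 kb for Pcl B.

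The outermost peaks were weak in both lists. The first peak of the window had a fold of 2.64 for Pcl A and of 3.34 for Pcl B. The last peak had a fold of 2.67 for Pcl A (2885185 to 2885426, outside the long domain) and of 3.34 for Pcl B (2877636 to 2877887). From the first peak to the first summit with a fold above 10 the distance was 15.2 kb for Pcl A and 11.4 kb for Pcl B. From the last such summit to the end of the last peak it was 22.3 kb for Pcl A and 14.7 kb for Pcl B.

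**Figure D2:**
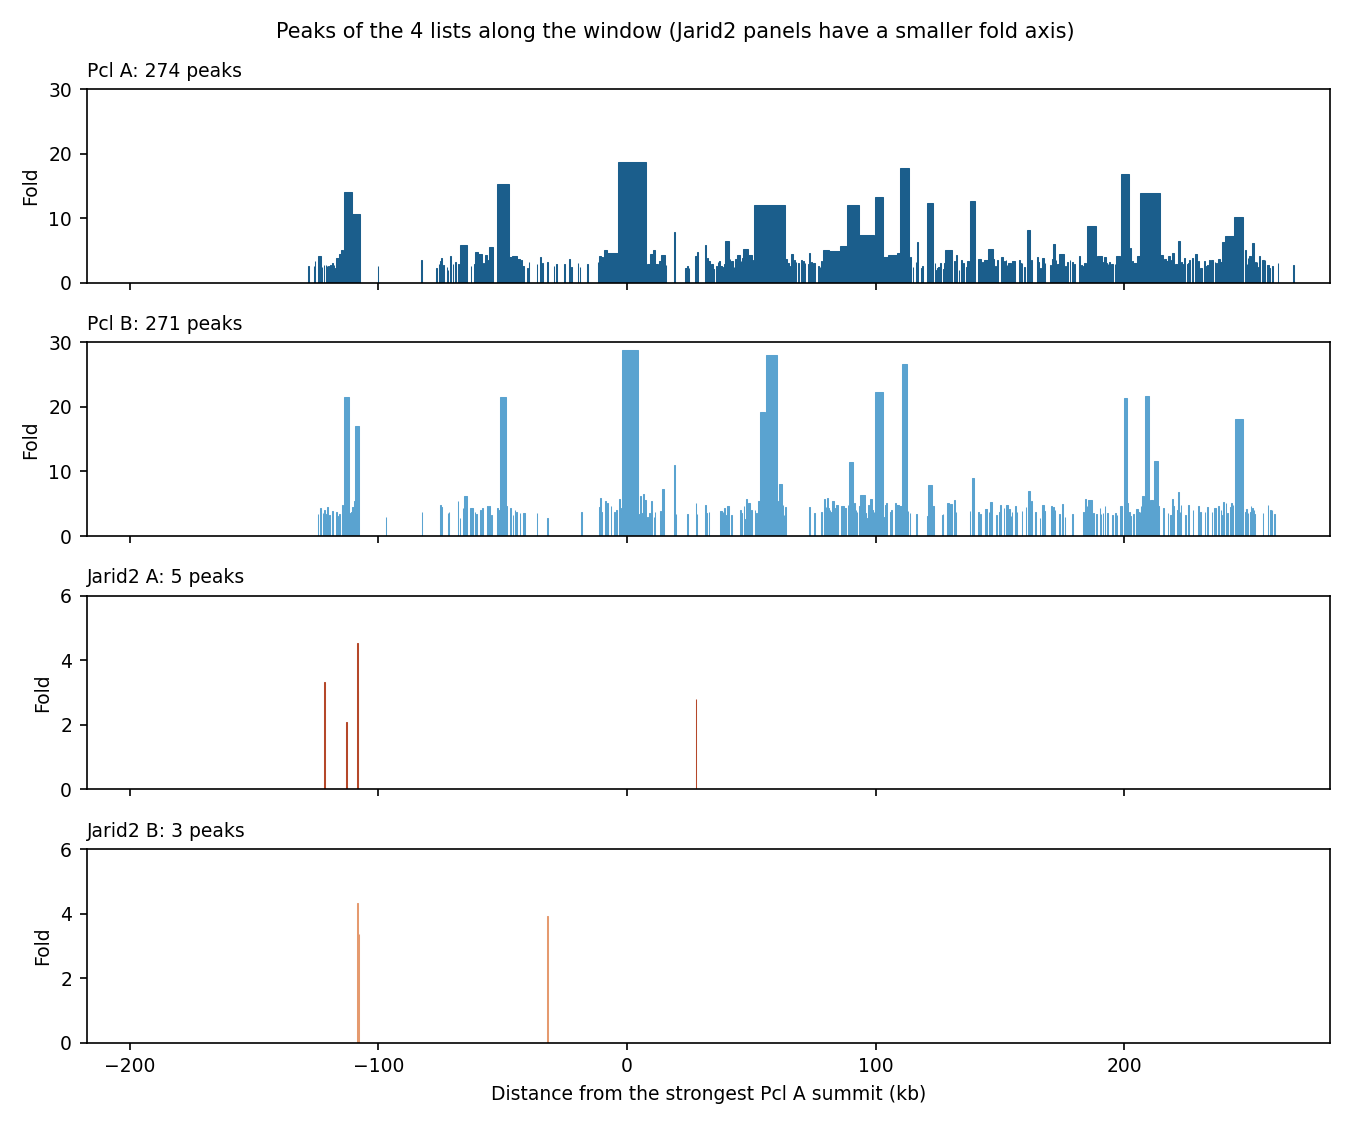
Each peak of the 4 lists is drawn from its start to its end (horizontal axis, kb from the strongest Pcl A summit of the window) with its fold enrichment as height. The Jarid2 axes end at a fold of 6 and the Pcl axes at 30. In both Pcl panels a short domain lies on the left, with 2 strong peaks at its right edge. About 30 kb with only isolated weak peaks separates it from the longer stretch that follows. No Jarid2 peak lies in the right part of the window.

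Cover was uneven inside the long Pcl A domain and the Pcl B domains within it. In bins of 10 kb, Pcl A covered 50% or more of 25 of the 50 bins of the window and Pcl B of 9. Both lists had their fullest bin from 2670001 to 2680000, where Pcl A covered 100% and Pcl B 86.9%. Pcl A also covered over 94% of both bins from 2610001 to 2630000 and over 96% of the 3 bins from 2700001 to 2730000, where Pcl B covered 53.9% to 75.6%. Within the long domain, cover was lowest between 2580001 and 2600000, at 18.5% and 11.6% of its 10 kb bins for Pcl A and 6.11% and 3.74% for Pcl B. The widest stretches of the long domain without a peak in either Pcl list ran from 2601566 to 2605536 (3.97 kb), from 2637040 to 2640766 (3.73 kb) and from 2633011 to 2636181 (3.17 kb). Over the 41 bins with any Pcl cover, the covered shares of the lists had a Spearman rho of 0.945. Bins are neighbours on a chromosome and no test was made of this value.

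**Figure D3:**
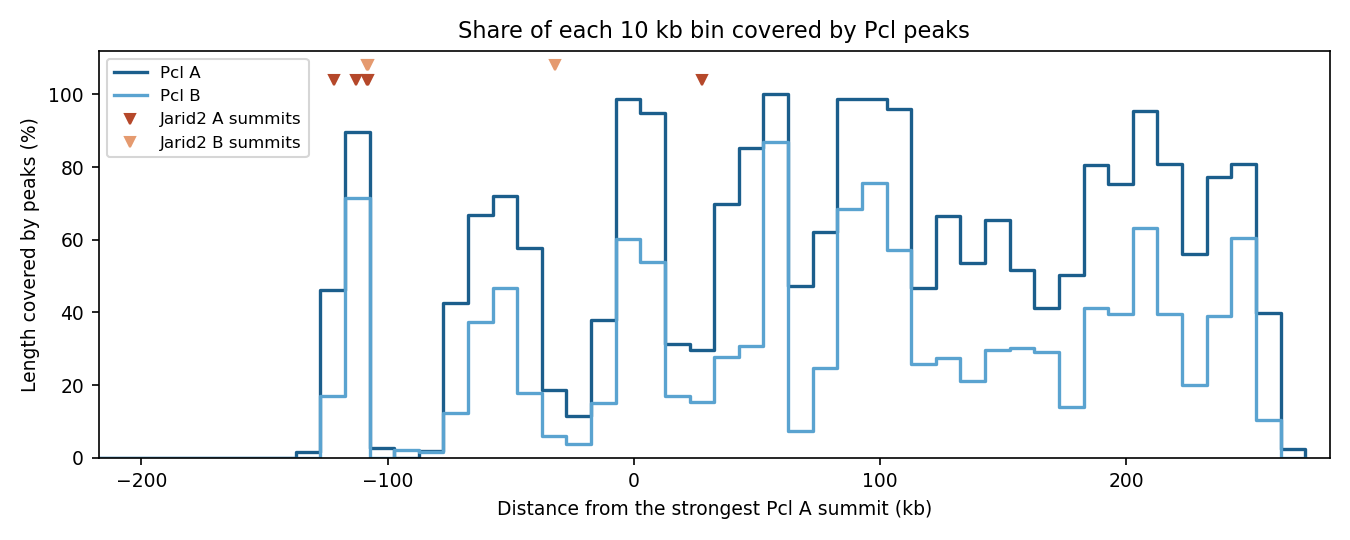
Percent of each 10 kb bin covered by peaks of Pcl A and Pcl B (lines), against distance from the strongest Pcl A summit in kb, with the Jarid2 summits as triangles above. The lines rise and fall together, Pcl A lies above Pcl B in 40 of the 41 bins with any cover, and Jarid2 A and Jarid2 B triangles coincide at 1 place.

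The Pcl libraries differed in the width of their peaks. The median width was 391.5 bp in Pcl A (157 to 12439 bp) and 277 bp in Pcl B (151 to 6141 bp). Peaks wider than 1000 bp were 56 of 274 in Pcl A, or 20.4%, against 14.6% of the whole list, and 20 of 271 in Pcl B, or 7.38%, against 8.91% of the whole list. None of the 8 Jarid2 peaks was that wide, against 1.04% of the Jarid2 A list and 1.8% of the Jarid2 B list. The wide Pcl peaks made up 63.4% of the window's covered length in Pcl A, against 34.8% in Pcl B. Fold and width went together, with a Spearman rho of 0.676 over the 274 Pcl A peaks and 0.557 over the 271 Pcl B peaks, which are peaks of 1 library each and no replicates. Neighbouring summits lay a median of 929 bp apart in Pcl A, against 964.5 bp in Pcl B. The widest Pcl A peak ran from 2668401 to 2680839 (12439 bp) and was overlapped by 12 Pcl B peaks, which covered 78.9% of it. The next, from 2613747 to 2625085 (11339 bp), was overlapped by 9 Pcl B peaks and 83.4% covered, and one from 2823657 to 2831654 (7998 bp) by 7 Pcl B peaks and 79.3% covered.

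Most of what Pcl B called in the window was also called in Pcl A. Of the Pcl B peaks, 250 of 271, or 92.3% (Wilson 95% interval 88.4 to 94.9%), were overlapped by at least 1 bp by a Pcl A peak, against 86.6% of the whole Pcl B list. Of the Pcl A peaks, 150 of 274, or 54.7% (48.8 to 60.5%), were overlapped by a Pcl B peak, against 42.6% of the whole Pcl A list. Peaks that cover more of a stretch are overlapped more easily, so these shares are descriptions and were not tested against the whole lists. Their intervals, too, treat neighbouring peaks of 1 library as independent. In base pairs, 111.8 kb lay in both lists, which was 48.1% of the length in Pcl A and 89.6% of that in Pcl B.

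Merging the peaks of both Pcl lists gave 272 regions, of which 127 were called in both, 124 in Pcl A alone and 21 in Pcl B alone. The whole lists were not merged in this way, so these counts are not read as a trait of the window. Over the whole lists, 42.6% of Pcl A peaks and 86.6% of Pcl B peaks were overlapped by the other Pcl list. Regions called in both held most of the length and every fold above 4.87. They summed to 200.5 kb with a median width of 845 bp. Those of Pcl A alone summed to 40.6 kb and had no fold above 4.51, and those of Pcl B alone summed to 4.49 kb and had no fold above 4.87.

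Strong Pcl peaks stood at nearly identical positions in the libraries. A fold above 10 was reached by 13 peaks of the window in Pcl A, or 4.74%, against 3.11% of the whole list, and by 14 in Pcl B, or 5.17%, against 5.9% of the whole list. No Jarid2 peak reached it, in the window or elsewhere (0% of both Jarid2 lists). The median fold was 3.24 in the window and 3.08 outside it for Pcl A, and 4.06 in the window and 4.06 outside it for Pcl B. By fold the window's peaks thus lay close to those of the rest of the genome. By the peak caller's q, 60.2% of the window's Pcl A peaks and 50.6% of its Pcl B peaks were at or below 1e-05, against 52.2% and 49.8% of the whole lists. For Jarid2 this was 2 of 5 peaks in Jarid2 A and 2 of 3 in Jarid2 B, against 61.5% and 50.9% of the whole lists. The window's strongest Pcl peak ranked 9th by fold in the whole Pcl A list and 6th in the whole Pcl B list.

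Pairing each Pcl A summit with a Pcl B summit within 500 bp, where each was the other's nearest, gave 142 pairs with a median distance of 86 bp. In 11 pairs both folds were above 10, and their median distance was 6 bp. These 11 sites lay from 2504408 to 2863174, with spacings of 4.67 to 88.4 kb between neighbours (median 34.1 kb). They are a description chosen by fold, with a threshold set after values of these lists were known.

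The strongest site of the window had its summit at 2617339 in Pcl A and at 2617334 in Pcl B, 5 bp apart, with folds of 18.7 and 28.8. In Pcl B its peak ran from 2615459 to 2621599 (6141 bp), the widest of that list in the window. The site at 2675840 in Pcl A and 2675810 in Pcl B had folds of 12.1 and 28.0, the largest ratio between the libraries among the 11 sites, and its peak in Pcl B was 4130 bp wide. It lies in the fullest 10 kb bin. The site at 2729402 had a fold of 17.8 in Pcl A, and 26.7 at 2729366 in Pcl B.

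To its left stood another pair of sites, with Pcl A summits at 2707610 and 2719021 and Pcl B summits at 2707819 and 2718993. The site at 2707610 had a fold of 12.0 in Pcl A against 11.4 in Pcl B. It was the only one of the 11 sites where the Pcl B fold was not the higher and where the summits were over 40 bp apart, at 209 bp. The site at 2719021 had a fold of 13.3 in Pcl A against 22.3 in Pcl B, and its peaks were almost equal in width, 3354 bp for Pcl A and 3341 bp for Pcl B.

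Toward the right end of the long Pcl A domain there were 3 more sites. The fold was 16.8 at 2817819 in Pcl A, against 21.4 at 2817821 in Pcl B. It was 13.8 at 2826763 in Pcl A, against 21.7 at 2826756 in Pcl B. At 2863174 the summits were at the same base in both lists, with a fold of 10.1 in Pcl A against 18.1 in Pcl B. Between the first domain and the strongest site there was 1 site, at 2567472 in Pcl A with a fold of 15.2 and at 2567474 in Pcl B with a fold of 21.6.

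Some peaks had a fold above 10 in 1 list alone. Pcl A had such summits at 2738926 and 2756417 with folds of 12.3 and 12.7. Pcl B had such summits at 2636566, 2671503 and 2830304, of which the last 2, with folds of 19.2 and 11.6, lay inside the wide Pcl A peaks at 2668401 to 2680839 and 2823657 to 2831654. A wide peak has a single summit in these lists, so a second high point inside it has no summit of its own.

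Summits lay closest together at the strong peaks. In Pcl A the nearest Pcl B summit was within 50 bp for 11 of 13 peaks with a fold above 10, for 9 of 23 with a fold above 5 and up to 10, and for 37 of 238 with a fold up to 5. Over the window this was 57 of 274, or 20.8%, against 16% of the whole Pcl A list. In Pcl B it was 11 of 14, 6 of 44 and 40 of 213 in the same order, and 57 of 271, or 21.0%, over the window, against 21.1% of the whole Pcl B list. The Pcl B share was thus lower in the middle class (13.6%) than in the weakest (18.8%). These fold classes were not counted over the whole lists, so the closeness at strong peaks is not read as particular to the window. Over the 142 pairs the Spearman rho of the folds was 0.518 and the Pearson r of their log2 values was 0.825. Within 500 bp of a summit of the other Pcl library lay 171 summits of Pcl A, or 62.4%, against 49.2% of the whole list, and 168 of Pcl B, or 62.0%, against 64.1%. The coefficients are across sites that share a library and a chromosome domain, not across replicates. The Pcl B fold was higher in 99 of the 142 pairs, with a median ratio of Pcl B to Pcl A of 1.15 over all pairs and 1.54 over the 11 strong ones. The folds come from lists called separately and were not put on a common scale, so no difference in binding was read from this ratio.

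**Figure D4:**
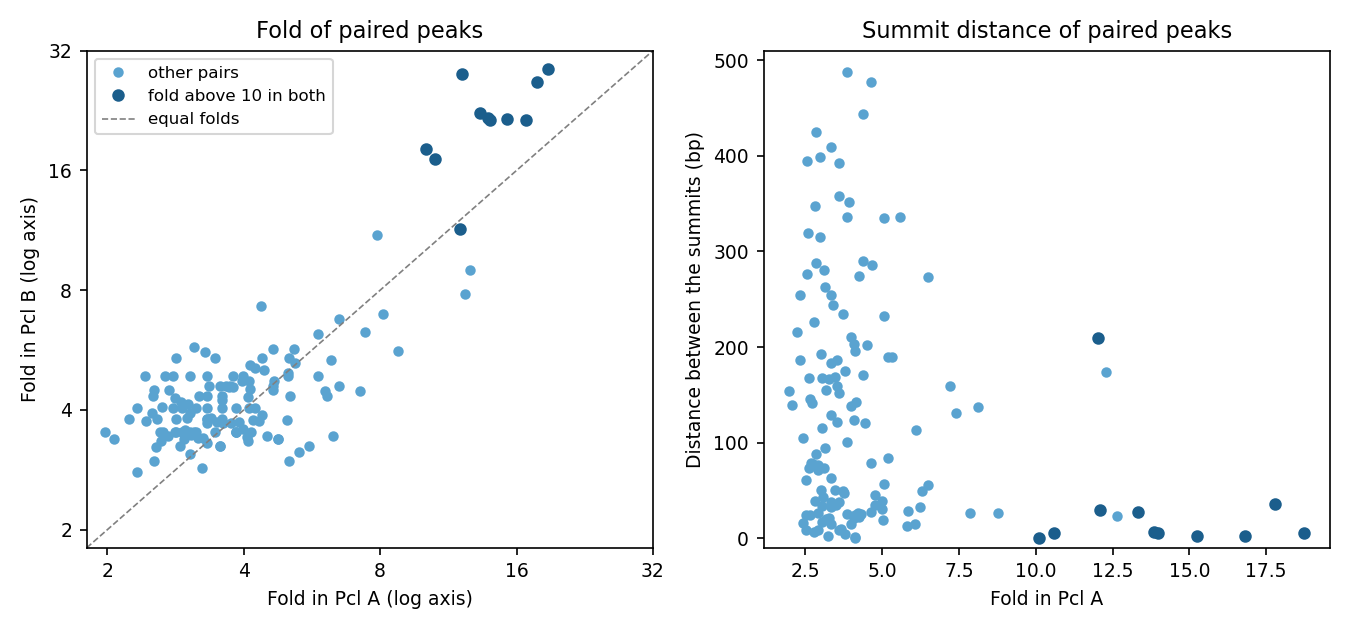
Left, fold in Pcl B against fold in Pcl A (log axes) for the 142 pairs of nearest summits. Right, distance between the paired summits in bp against fold in Pcl A. The 11 pairs with a fold above 10 in both lists are dark. Of these, 10 lie above the line of equal folds, and all but 1 have summits within 36 bp of each other.

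Jarid2 was called at 5 places of the window when its 8 peaks were joined within 1 kb, and a single place was called in both libraries. Between the Jarid2 libraries, Jarid2 B overlapped 2 of 5 Jarid2 A peaks, against 49.6% of the whole list, and Jarid2 A overlapped 1 of 3 Jarid2 B peaks, against 87.8%. All 8 peaks were overlapped by a Pcl B peak and 7 by a Pcl A peak. In the whole lists, 21.4% of Jarid2 A peaks were overlapped by Pcl A and 18.1% by Pcl B, and for Jarid2 B the shares were 22.1% and 18.8%. Pcl covered so much of the window that overlap there is easily met, and 8 peaks at 5 places are too few to set against the lists. Every one of the 8 Jarid2 summits lay within 500 bp of a Pcl A summit and of a Pcl B summit, at a median of 89.5 bp and 68.5 bp. In the whole Jarid2 A list 17.1% of summits lay that near a Pcl A summit and 17.5% that near a Pcl B summit, and in the whole Jarid2 B list 17.8% and 17.2% did. In the window, neighbouring summits lay a median of 929 bp apart in Pcl A and 964.5 bp apart in Pcl B. How many Jarid2 summits would lie that near a Pcl summit by this spacing alone was not tested.

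The place called in both Jarid2 libraries lay at the right edge of the first Pcl domain. Jarid2 A had a peak from 2508793 to 2509072 with its summit at 2508982 and a fold of 4.54, the strongest Jarid2 peak of the window (rank 151 in its list), and a second from 2509144 to 2509306 with a fold of 3.04. Jarid2 B had a peak from 2508873 to 2509297 with its summit at 2508985 and a fold of 4.33 (rank 110), and a second from 2509479 to 2509658 with a fold of 3.36. The main summits of the Jarid2 libraries were 3 bp apart. The Pcl summits at this site stood 91 bp from the Jarid2 A summit in Pcl A and 94 bp from the Jarid2 B summit in Pcl B, on the same side, at 2509073 and 2509079.

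The other Jarid2 places were called in a single library each. Jarid2 A had a wide but weak peak of 495 bp, with a fold of 2.08 and its summit at 2504392, which was 16 bp from the strong Pcl A summit at 2504408 and 21 bp from the Pcl B summit at 2504413. Another place in the first domain, at 2495677 with a fold of 3.32, lay 43 bp from a weak Pcl B summit with a fold of 4.05 and was not overlapped by Pcl A. Jarid2 A also had a peak at 2645115 with a fold of 2.80, 11 bp from a Pcl A summit with a fold of 4.12 and 35 bp from a Pcl B summit with a fold of 5.18. Jarid2 B had a peak at 2585426 with a fold of 3.92, 2 bp from a Pcl B summit with a fold of 2.85 and 4 bp from a Pcl A summit with a fold of 3.23.

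**Figure D5:**
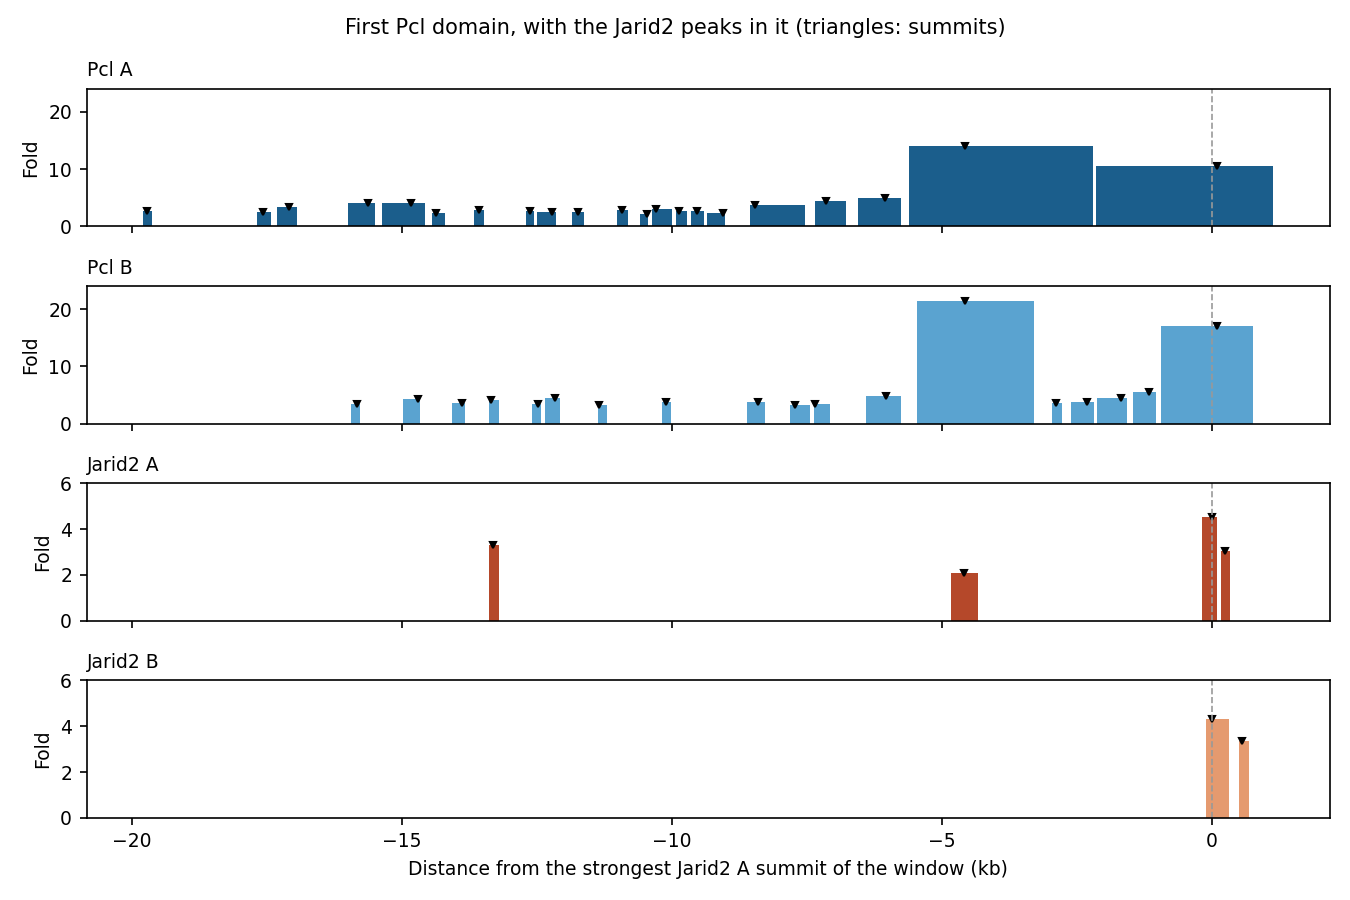
The first Pcl domain in the 4 lists. Peaks are drawn from start to end, with fold enrichment as height and triangles at their summits, against distance in kb from the strongest Jarid2 A summit of the window (dashed line). The 2 strong peaks of each Pcl list lie at the right end, Jarid2 A has peaks at both and 1 further to the left, and both Jarid2 B peaks lie at the rightmost strong Pcl site.

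Thus 6 of the 8 Jarid2 peaks lay in the short first domain and none beyond 2645168, a stretch of 254.8 kb up to the end of the window in which Pcl A had 188 peaks and Pcl B 190. Of these 6 peaks, 2 from each Jarid2 library made up the single place called in both, so they are not separate places. Jarid2 A overlapped 1.09% of the window's Pcl A peaks (Wilson 95% interval 0.373 to 3.17%) and 1.48% of its Pcl B peaks (0.575 to 3.73%), against 5.32% and 7.4% of the whole lists. Jarid2 B overlapped 0.730% (0.200 to 2.62%) and 0.738% (0.203 to 2.65%), against 3.25% and 4.77% of the whole lists. These intervals cover counting error only and treat neighbouring peaks of 1 library as independent, which they are not. With 5 Jarid2 A peaks and 3 Jarid2 B peaks in the window, few Pcl peaks could be overlapped. Of the 11 strong Pcl sites, 9 had no Jarid2 summit within 500 bp in either list. No share by the same rule was computed over the whole lists, so this count is not read as particular to the window. The strongest Pcl site, at 2617339, was 27.8 kb from the nearest Jarid2 A summit and 31.9 kb from the nearest Jarid2 B summit. Jarid2 A overlapped 2 of the 13 Pcl A peaks with a fold above 10, or 15.4% (Wilson 95% interval 4.33 to 42.2%), against 30.4% of such peaks in the whole Pcl A list. Jarid2 A overlapped 2 of the 14 such Pcl B peaks, or 14.3% (4.01 to 39.9%), against 32.5% in the whole list. Jarid2 B overlapped 1 of the 13 and 1 of the 14, against 18.6% and 21.2% in the whole lists. These peaks belong to 1 library each and are no replicates, and no difference from the whole lists was tested. The depth of the Jarid2 libraries is unknown, and a site that they did not call may still have been bound.

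The Jaccard index divides the length that a pair of lists has in common by the length covered by at least 1 of them. It was 45.5% for the Pcl libraries, and their unequal covered lengths would allow at most 53.6%. It averaged 0.624 ± 0.290% (SD) over the 4 pairs that set a Pcl library beside a Jarid2 library, and it was 20.3% for the Jarid2 libraries, which rests on a single place.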

How the data were processed

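The authors deposited 1 peak list per immunoprecipitated library in the narrowPeak layout; replicates were not pooled. Per the submitters' processing notes, Trimmomatic 0.36, Bowtie 1.2.2, deepTools 3.0.2, MACS2 2.1.1 and build dm3 were used. The control library and the threshold are not given in the sources used here, and the smallest −log10 q in the deposited lists was 1.31 to 1.35. The deposited fold is a linear ratio at the summit, p and q are deposited as −log10 values, and the deposited score is the whole part of 10 times −log10 q. Per the labels' protocols, embryos were fixed with 3% formaldehyde and adaptor-ligated DNA of 250-500 bp was selected.

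A peak belonged to the window by its summit, and no member crossed a bound. Positions are 1-based. Overlap needed at least 1 bp. Pcl peaks were joined across gaps of up to 5 kb. The regions named were all Jarid2 peaks, the 5 highest folds, the 3 widest and the first and last peak of each Pcl list, domains of over 10 kb and the 3 widest stretches without Pcl. The strong sites and the peaks with a fold above 10 in 1 list were added after values were seen. The window and all choices were made with earlier results of these lists known. Proteins were compared over libraries by an exact two-sided permutation test. Peaks within a library are not replicates and were described. The overlap and joining steps were tested on simulated data with known answers. Alternatives were q at or below 1e-05, other overlaps, bounds, gaps and list lengths, leaving out each library, and a replicate block. No sequence is printed, since no genome of the lists' build was used. Python 3.11.15, numpy 2.4.6, pandas 2.3.3, scipy 1.17.1 and matplotlib 3.10.9 were used.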

Additional observations from a re-analysis of the deposited data

How the results depend on the processing

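The differences between Pcl and Jarid2 in peaks, covered length and share of the list kept their direction under every alternative tried, and the exact permutation p was 0.333 wherever that test was run. The mean difference of 268.5 peaks was 149 with q at or below 1e-05 and 61.5 with lists of equal length, and that of 177.6 kb covered was 145.8 kb and 101.9 kb. Without each library in turn it ranged from 267 to 270, that of covered length from 123.7 to 231.5 kb and that of the share of the list from 5.02 to 6.65 percentage points. With the replicate block, which pairs libraries of the same letter, the values were the same (268.5 peaks, 177.6 kb and 5.83 percentage points, exact p = 0.5, the smallest possible), and the mean Jaccard index between proteins was 0.564% over same-letter pairs. Same-letter deviations of covered length had a correlation of 0.102 over 11833 bins of the main arms, and the labels do not say that letters pair the libraries.

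The share of Pcl A peaks found in Pcl B was 48.5% where 50% of the shorter peak had to be shared, 62.4% with summits within 500 bp and 46.7% with q at or below 1e-05. The share of Pcl B found in Pcl A was 85.6% with the first of these and 62.0% with the second. The mean number of Pcl domains, 6.5, was 21 with gaps of up to 2 kb, 3 with gaps of up to 10 kb and 10.5 with q at or below 1e-05. That stricter q moved the left edge of the first domain of over 10 kb to 2549255 in Pcl B, where the short domain falls under that length. The window ranked second of 228 by covered length in both Pcl lists, and second by peaks in Pcl B, among windows that do not overlap. With q at or below 1e-05 it ranked 4 by peaks in Pcl B. The cause was not tested. Unknown read depth limits every statement on sites that a list did not call.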
